A study of Mus musculus with 24 samples.

Results

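Transcripts of 9 genes whose products carry long-chain fatty acids across membranes and through the cytosol were followed in mouse liver: Cd36, Fabp1, Fabp2, Fabp4, Fabp5, Slc27a1, Slc27a2, Slc27a4 and Slc27a5. They were chosen by name, as every gene probe of the array that carries 1 of these 9 symbols, and this gave 11 probes of 56605 and 9 genes of the 21331 tested. Of the genes, 7 were read by 1 probe each, and Fabp4 and Slc27a4 by 2 each.

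Fatty acids reach the liver from plasma, bound to albumin after adipose tissue has released them by lipolysis. At the hepatocyte surface, CD36 binds them and takes part in their uptake, and proteins of the fatty acid transport family (encoded by Slc27a genes) couple uptake to the attachment of coenzyme A. Inside the cell, fatty acid binding proteins (encoded by Fabp genes) hold these insoluble molecules in solution and pass them to membranes, enzymes and nuclear receptors. PPARα is a fatty acid-activated nuclear receptor that regulates genes of fatty acid handling in hepatocytes, and several of these carriers are known targets of the PPAR family.

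The livers came from 24 male C57Bl/6J mice, 6 in each of 4 groups, with 1 single-colour array per mouse. LWT mice express hepatocyte PPARα and LKO mice lack it, per the series title. Mice of each genotype received by gavage at Zeitgeber time 10 h the beta3 adrenergic agonist CL316243 (labelled Beta3) at 3 mg/kg, or its vehicle, 0.5% carboxymethyl cellulose. They are called treated and vehicle mice. All were sacrificed at Zeitgeber time 16 h after free access to a standard diet. The beta3 receptor is known above all from adipocytes, where it triggers lipolysis. The promoter or Cre line behind the LKO genotype, the removed part of Ppara and the ages of the mice are not given in the sources used here.

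Values are log2 signals relative to the 75th percentile of each array, which lay between 397.4 and 577.7 intensity units. Between 26982 and 34195 of the 56605 probes were well above background per array, and no spot was saturated. All member probes were well above background on all 24 arrays except the dimmer Slc27a4 probe. The hepatocyte markers Alb, Ttr, Apoa1, Trf and Hnf4a were well above background on all 24 arrays. The brightest Ppara probe read 5.68 ± 0.16 (SD, n = 6) in vehicle LWT, 6.23 ± 0.27 in treated LWT, 5.01 ± 0.15 in vehicle LKO and 4.32 ± 0.64 in treated LKO. Under both treatments the 6 LKO mice lay below the 6 LWT mice. The second Ppara probe also separated them, with 4.18 to 4.69 in vehicle LWT and 3.31 to 3.73 in vehicle LKO. In treated mice it read 4.51 to 5.28 in LWT and 1.81 to 3.53 in LKO. Since the removed part is not known, either probe may lie outside it, and the separation then does not show the deletion itself. By the brightest probe LKO minus LWT was -0.68 under vehicle (limma over all genes, adjusted p 0.158) and -1.91 under CL316243 (adjusted p 3.6e-07). In the same fit Ppara was higher with CL316243 in LWT (0.55, adjusted p 0.0377) and lower in LKO (-0.69, adjusted p 0.01). The difference under CL316243 therefore also holds changes with treatment.

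The promoters of the members were read for the letters that PPARα is known to bind, a direct repeat of the hexamer AGGTCA with 1 base of any kind between its copies. Of the 9 members, 6 had an entry in RefSeq's promoter windows (build GRCm38.p6), and Fabp4, Fabp5 and Slc27a5 had none. The 250 bases before the start are printed, 5′ to 3′ along the gene, for the 4 members with an entry that passed the test of CL316243 as higher in LWT and did not pass in LKO. Of these, Fabp1 and Fabp2 did not pass in LWT with quantile-normalized signals or the authors' deposited values. Passing in LWT and not in LKO is no test of a difference between the genotypes. In the direct test of that difference Slc27a2 passed (limma, adjusted p 0.0333). Cd36 (adjusted p 0.155), Fabp1 (0.58) and Fabp2 (0.0751) did not. Capitals mark the hexamer, or the repeat with at most 2 mismatches, on either strand; these can overlap. The windows are chr5:17835897-17836146 (minus strand), chr6:71199629-71199878, chr3:122894822-122895071 and chr2:126552774-126553023 (plus strand).
Cd36: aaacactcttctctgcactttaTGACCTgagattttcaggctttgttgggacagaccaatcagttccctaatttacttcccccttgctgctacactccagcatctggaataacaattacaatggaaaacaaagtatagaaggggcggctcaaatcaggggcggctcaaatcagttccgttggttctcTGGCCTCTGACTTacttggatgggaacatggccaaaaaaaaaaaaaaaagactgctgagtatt
Fabp1: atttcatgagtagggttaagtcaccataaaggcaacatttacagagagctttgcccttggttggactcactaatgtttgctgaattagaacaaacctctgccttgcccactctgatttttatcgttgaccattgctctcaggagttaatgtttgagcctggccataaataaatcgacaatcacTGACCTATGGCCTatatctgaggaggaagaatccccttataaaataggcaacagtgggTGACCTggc
Fabp2: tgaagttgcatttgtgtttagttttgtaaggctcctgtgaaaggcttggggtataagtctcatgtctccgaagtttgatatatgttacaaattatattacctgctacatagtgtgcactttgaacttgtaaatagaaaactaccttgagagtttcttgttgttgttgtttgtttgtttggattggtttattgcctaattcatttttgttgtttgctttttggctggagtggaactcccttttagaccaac
Slc27a2: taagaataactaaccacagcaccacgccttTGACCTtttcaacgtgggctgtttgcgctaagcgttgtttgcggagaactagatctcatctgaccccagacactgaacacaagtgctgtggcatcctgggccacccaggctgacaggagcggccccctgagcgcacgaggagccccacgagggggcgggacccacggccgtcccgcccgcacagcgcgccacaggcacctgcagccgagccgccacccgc
The Fabp1 window holds a repeat with 1 mismatch 67 to 55 bases before the start, which contains 1 of its 2 exact hexamers; the other lies 9 to 4 bases before the start. In the Cd36 window a repeat with 2 mismatches lies 63 to 51 bases before the start and an exact hexamer 228 to 223 bases before it. Slc27a2 has 1 hexamer, 220 to 215 bases before the start, and Fabp2 has neither pattern, nor have the windows of Slc27a1 (3 starts) and Slc27a4. Of all 32851 windows of 250 bases, 14% hold the hexamer, 3.24% the repeat with at most 2 mismatches and 0.0335% the exact repeat. These matches describe letters only.

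The first question was how beta3 activation changes these carriers in livers with hepatocyte PPARα. In LWT mice, 6 of 9 members passed the test (limma across 21331 genes, Benjamini-Hochberg adjusted p under 0.05), against 38.3% of all genes. Cd36, Fabp1, Fabp2, Fabp4 and Slc27a2 rose and Slc27a4 fell, where 18.9% of all genes rose and 19.4% fell. With quantile-normalized signals the split was 3 higher and 2 lower in place of 5 and 1: Fabp1 and Fabp2 no longer passed, and Slc27a5 was lower. The median log2 change of the 9 was 0.38, beside 0.01 over all genes. In 4 members, Cd36, Fabp4, Slc27a2 and Slc27a4, there was no overlap between the 6 treated and the 6 vehicle mice, beside 20.4% of all genes.

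The same treatment in LKO livers changed 2 of 9 members, beside 40.3% of all genes: Fabp4 rose (20.9% of genes rose) and Slc27a4 fell (19.4% fell). With quantile-normalized signals the split was 1 higher and 3 lower, as Fabp1 and Slc27a5 were then also called lower. The members' median log2 change was 0.02, beside 0.03 over all genes. Fabp4 alone had no overlap between the treated and vehicle mice, beside 20.8% of all genes. The difference between both effects, LKO minus LWT, was tested directly, and Slc27a2 alone of the 9 passed, beside 5.41% of all genes (3.24% in its direction, 2.17% in the other).

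**Figure D1:**
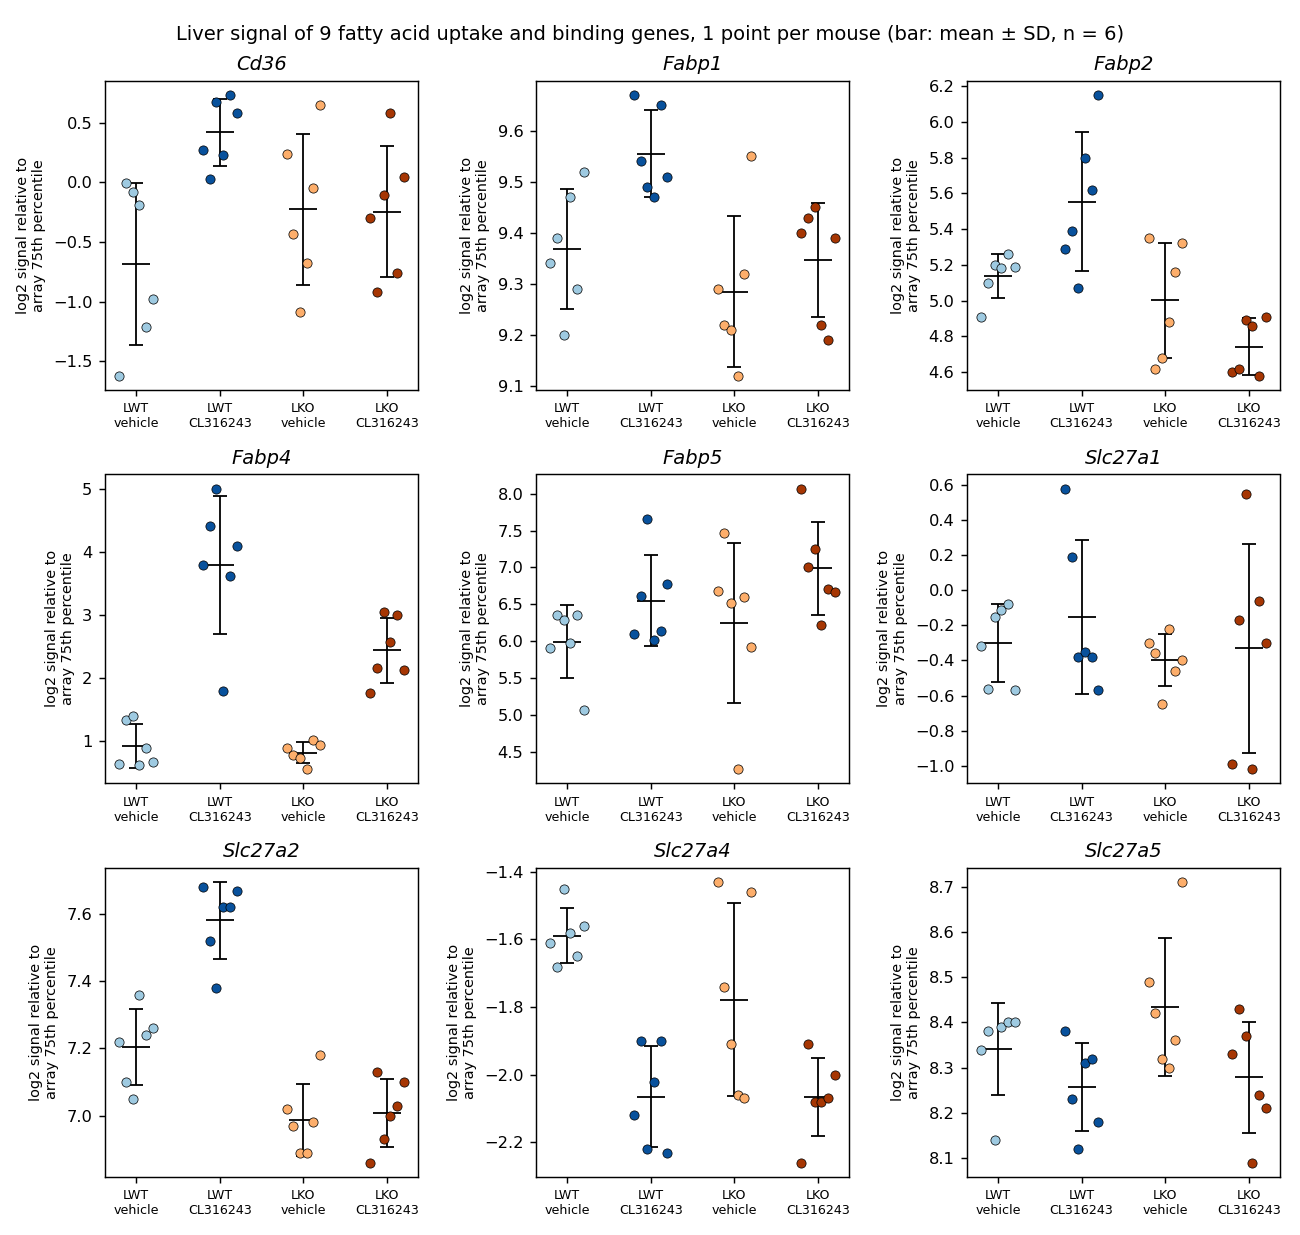
Log2 signal of each member's brightest probe, scaled to the 75th percentile of its array (vertical axis, a scale of its own per gene) in the 4 groups (horizontal axis), with 1 point per mouse and bars for mean ± SD (n = 6). The Fabp4 panel shows the treated mice of both genotypes above all vehicle mice, and the Slc27a2 panel shows the 6 treated LWT mice (7.38 to 7.68) above every other mouse.

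**Figure D2:**
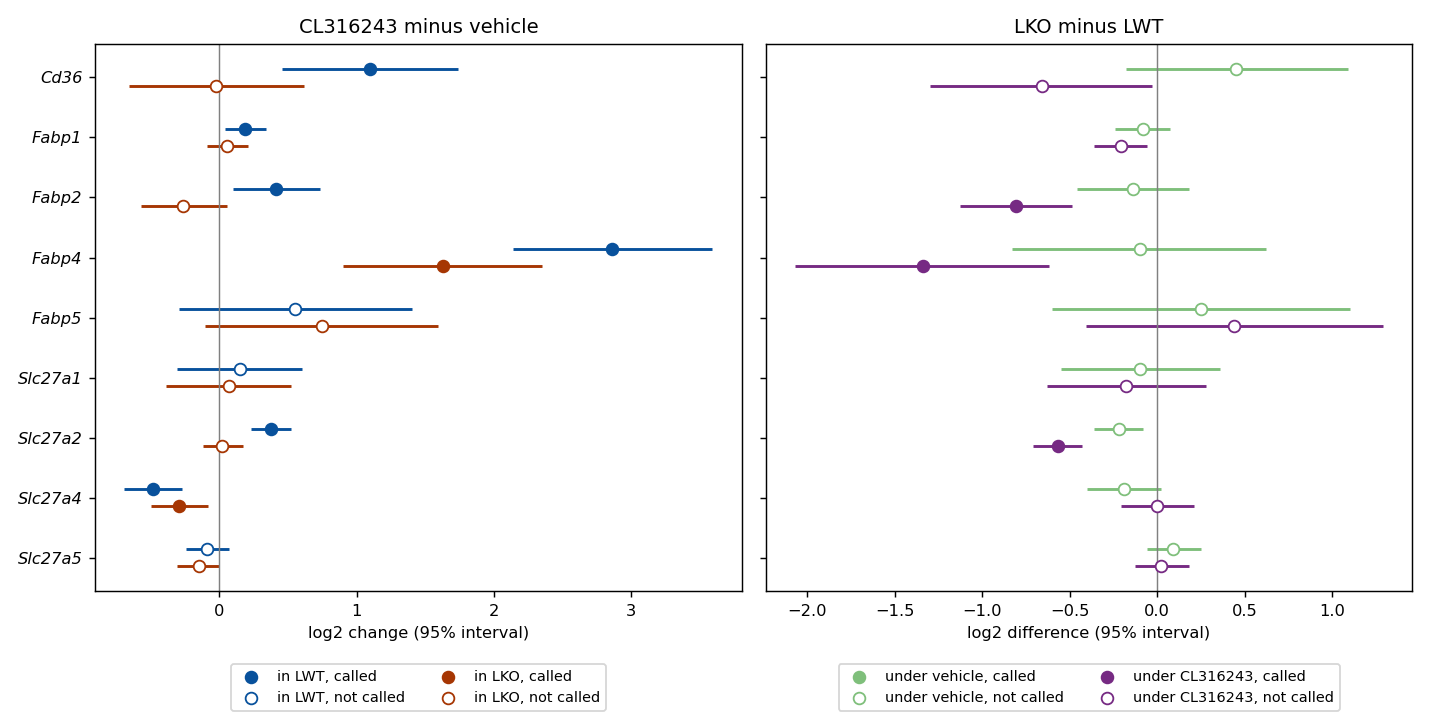
Log2 change with CL316243 in each genotype (left) and log2 difference between genotypes under each treatment (right) for the 9 members, with 95% intervals of the limma fit; filled points passed an adjusted p of 0.05. On the left Cd36, Fabp1, Fabp2, Fabp4 and Slc27a2 were called higher in LWT, and Fabp4 alone was called higher in LKO. Slc27a4 was called lower in both genotypes, and the LWT points of Fabp5 and Slc27a1 lie to the right of 0 without a call. On the right Fabp2, Fabp4 and Slc27a2 were called lower in LKO under CL316243 and none under vehicle.

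Cd36 encodes the scavenger receptor that binds long-chain fatty acids at the cell surface, and it was read by 1 probe at base 2390 of its transcript (chromosome 5, 17288600 to 17288659, minus strand, build mm9, the build of the array's annotation for all probe positions here). Its log2 signal was -1.62, -0.58 and -0.01 (lowest, median and highest of 6 mice) in vehicle LWT and 0.03, 0.43 and 0.73 in treated LWT. The LKO mice read -1.09, -0.24 and 0.65 under vehicle and -0.92, -0.20 and 0.58 under CL316243. All treated LWT mice lay above all vehicle LWT mice, by as little as 0.03 against -0.01 at the edge, whereas the LKO groups covered nearly the same range.

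CL316243 raised Cd36 in LWT by 1.1 on the log2 scale (SE 0.31, 95% interval 0.46 to 1.74, 2.14-fold, adjusted p 0.00692), and within the 3 slides the change was 0.93 to 1.20. In LKO the change was -0.02 (-0.66 to 0.62, adjusted p 0.970). The difference between the effects was -1.12 (-2.02 to -0.22) and did not pass over all genes (adjusted p 0.155). Within the slides, which divide the same mice, it lay between -1.22 and -0.92. The vehicle mice of both genotypes were spread widely: the SD was 0.68 in vehicle LWT and 0.63 in vehicle LKO, at percentiles 95.7 and 95 of the SDs of all genes, and 0.28 in treated LWT. LKO minus LWT was 0.45 under vehicle (adjusted p 0.829) and -0.66 under CL316243 (adjusted p 0.159). The order of the group means ran from treated LWT (0.42) through vehicle LKO (-0.23) and treated LKO (-0.25) to vehicle LWT (-0.68). The ranges of the last 3 overlapped, and treated LWT also overlapped both LKO groups.

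Slc27a2 encodes FATP2, a very long-chain acyl-CoA synthetase of peroxisomes and endoplasmic reticulum that is also a main fatty acid transporter of hepatocytes. Its probe lies at base 2211 of the transcript (chromosome 2, 126413890 to 126413949, plus strand). Vehicle LWT mice read 7.05, 7.23 and 7.36 (lowest, median, highest) and treated LWT mice 7.38, 7.62 and 7.68. Vehicle LKO mice read 6.89, 6.97 and 7.18 and treated LKO mice 6.86, 7.02 and 7.13. The treated LWT mice thus stood above all other mice, and the LKO groups lay lowest and overlapped each other.

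The rise in LWT was 0.38 (SE 0.07, 95% interval 0.23 to 0.52, 1.30-fold, adjusted p 0.000165), seen within all 3 slides (0.29 to 0.49). In LKO the change was 0.02 (-0.12 to 0.17, adjusted p 0.815). The effects differed by -0.35 (SE 0.10, -0.56 to -0.15, adjusted p 0.0333), and by -0.49 to -0.26 within the slides. This call lay near the threshold and was lost with the authors' deposited values (-0.30, adjusted p 0.0517), with no filter on dim probes (adjusted p 0.103), and without any 1 of 9 mice (vehicle LWT 1, 2 or 3, treated LWT 1, 5 or 6, vehicle LKO 1 or 6, or treated LKO 1; -0.36 to -0.32, adjusted p 0.0501 to 0.0594). Under CL316243 Slc27a2 was lower in LKO than in LWT (-0.57, SE 0.07, adjusted p 2.07e-06, 1.49-fold), with no overlap. Under vehicle the difference was -0.22 (-0.36 to -0.08, adjusted p 0.190), with all 6 LKO mice below the LWT mean.

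Slc27a4 encodes FATP4, the family member best known from intestine and skin. The brighter of its 2 probes lies at base 3948 of the transcript (chromosome 2, 29672983 to 29673042, plus strand). It read -1.68, -1.59 and -1.45 in vehicle LWT and -2.23, -2.07 and -1.90 in treated LWT. In LKO it read -2.07, -1.83 and -1.43 under vehicle and -2.26, -2.08 and -1.91 under CL316243. The treated LWT mice lay below all vehicle LWT mice, while the vehicle LKO mice were spread over both ranges.

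By this probe Slc27a4 fell by 0.48 in LWT (SE 0.10, adjusted p 0.000742, 1.39-fold lower; -0.62 to -0.40 within the slides) and by 0.29 in LKO (SE 0.10, adjusted p 0.0274; -0.54 to -0.01 within the slides). The difference between the effects did not pass (0.19, -0.11 to 0.49, adjusted p 0.541). The second probe, at base 3369 (chromosome 2, 29672404 to 29672464), was well above background on 5, 3, 2 and 1 of 6 arrays in vehicle LWT, treated LWT, vehicle LKO and treated LKO. It gave 0.06 in LWT (-0.55 to 0.67, limma, adjusted p 0.897) and -0.15 in LKO (-0.76 to 0.45, adjusted p 0.702). These wide intervals include the brighter probe's -0.48 and -0.29, so this probe, often near background, neither repeats the fall nor contradicts it. The mean of both probes was not called (-0.21, adjusted p 0.366, in LWT and -0.22, adjusted p 0.318, in LKO). The LKO call was also lost with normexp background correction (-0.16, adjusted p 0.100), with no filter on dim probes (0.0611), in a fit of the LKO groups alone (0.0878), and without vehicle LKO 1 or 6 or treated LKO 1 (-0.25 to -0.22, adjusted p 0.0644 to 0.0817).

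Slc27a5 encodes FATP5, a liver transporter that also activates bile acids, and its probe lies at base 2264 of the transcript (chromosome 7, 13573701 to 13573760, minus strand). It read 8.14, 8.39 and 8.40 in vehicle LWT, 8.12, 8.27 and 8.38 in treated LWT, 8.30, 8.39 and 8.71 in vehicle LKO and 8.09, 8.29 and 8.43 in treated LKO. All groups overlapped. The change was -0.09 in LWT (adjusted p 0.395) and -0.15 in LKO (-0.31 to 0.00, adjusted p 0.105), with all 6 treated LKO mice below the vehicle mean. With quantile-normalized signals Slc27a5 was called lower in both genotypes (-0.19, adjusted p 0.00431, in LWT and -0.29, adjusted p 0.000128, in LKO), and with normexp in LKO (-0.18, adjusted p 0.0411).

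Slc27a1 encodes FATP1, the insulin-responsive transporter of muscle and fat, and its probe lies at base 2443 of the transcript (chromosome 8, 74110256 to 74110315, plus strand). It was called in none of the 5 comparisons. It read -0.57, -0.24 and -0.08 in vehicle LWT and -0.65, -0.38 and -0.22 in vehicle LKO. With CL316243 it read -0.57, -0.37 and 0.58 in LWT and -1.02, -0.24 and 0.55 in LKO. All groups overlapped, and the highest mouse of each treated group stood above all vehicle mice. The SD was 0.22 and 0.15 in the vehicle groups and 0.44 and 0.60 in the treated ones. The change was 0.15 in LWT (-0.31 to 0.60, adjusted p 0.644) and 0.07 in LKO (-0.39 to 0.52, adjusted p 0.833).

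Fabp4 encodes the adipocyte fatty acid binding protein (aP2), known from fat cells, macrophages and capillary endothelium, and it showed the widest difference between group means of the 9, 2.97. Its brighter probe lies at base 472 of the transcript (chromosome 3, 10204452 to 10204511, minus strand). Vehicle LWT mice read 0.61, 0.77 and 1.39, and vehicle LKO mice 0.55, 0.83 and 1.01. With CL316243 LWT mice read 1.79, 3.94 and 5 and LKO mice 1.76, 2.35 and 3.04. Every treated mouse of either genotype lay above every vehicle mouse.

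The second Fabp4 probe, at base 75 of the transcript (chromosome 3, 10208442 to 10208501, minus strand), is printed because it gives the same picture from another stretch of the transcript.
Fabp4 probe: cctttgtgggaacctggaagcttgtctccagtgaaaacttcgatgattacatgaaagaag
It read -2.76, -2.27 and -1.47 in vehicle LWT, -1.14, 1.02 and 2.24 in treated LWT, -2.26, -2.14 and -1.90 in vehicle LKO and -1.17, -0.68 and 0.08 in treated LKO. By this probe too the treated mice lay above all vehicle mice in both genotypes.

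CL316243 raised Fabp4 by 2.86 in LWT (SE 0.35, 95% interval 2.14 to 3.59, 7.28-fold, adjusted p 1.47e-06) and by 1.63 in LKO (0.90 to 2.35, 3.08-fold, adjusted p 0.000811). The second probe gave 3.08 (adjusted p 1.41e-06 over 32035 probes) and 1.54 (adjusted p 0.00217). Within the slides the change was 1.92 to 3.72 in LWT and 1.12 to 1.99 in LKO. LKO minus LWT was -0.10 under vehicle (-0.83 to 0.62, adjusted p 0.997) and -1.34 under CL316243 (-2.07 to -0.62, 2.54-fold lower, adjusted p 0.00971), with overlap. The latter was -2.76 to -0.34 within the slides, and a fit of the treated groups alone did not pass (adjusted p 0.0834).

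The test of the difference between the Fabp4 effects turned on 1 mouse. Over all mice it gave -1.24 (-2.26 to -0.22, adjusted p 0.166), and by the second probe -1.53 (adjusted p 0.0924). Replicate 4 of treated LWT read 1.79, the other 5 read 3.62 to 5, and it was also lowest of its group by the second probe (-1.14, the others 0.76 to 2.24). Both probes read the same RNA. Judged by the gap as a share of the group's range, this mouse is not among those flagged further on. Without it the LWT rise was 3.26, LKO minus LWT under CL316243 was -1.74, and the difference between effects was -1.64 and was called (adjusted p 0.00429). The SD of Fabp4 in treated LWT, 1.09, stood at percentile 98.5 of all genes. Within the slides the difference between effects ran from -2.60 to -0.15.

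**Figure D3:**
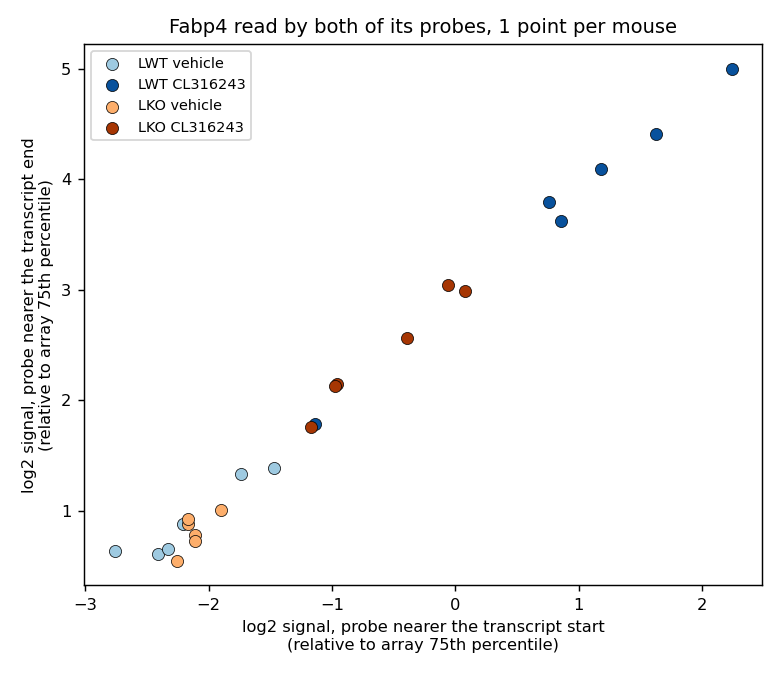
Fabp4 log2 signal, scaled to the 75th percentile of the array, by its probe at base 472 (vertical axis) against its probe at base 75 (horizontal axis), with 1 point per mouse coloured by group. The vehicle mice of both genotypes lie at the lower left, 5 treated LWT mice at the upper right, and replicate 4 of treated LWT (1.79 and -1.14) among the treated LKO mice.

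Whole liver was measured, and in bulk samples fewer cells of a type and less RNA per cell cannot be told apart. Since Fabp4 is known from other cells, their markers were read beside it. Of 6 adipocyte markers 5 were tested, and with CL316243 none rose in either genotype and Adrb3, the beta3 receptor gene, fell in both (limma, -2.10, adjusted p 1.47e-05, and -1.92, adjusted p 4.64e-05). No other adipocyte marker had an unadjusted p under 0.05 with CL316243. Adipoq, which defines mature adipocytes, was well above background on 0, 1, 3 and 2 of 6 arrays in vehicle LWT, treated LWT, vehicle LKO and treated LKO. The log2 of the summed adipocyte signal was 1.1 to 2.08 in vehicle LWT and -0.01 to 1.15 in treated LWT, with overlap, and 1.24 to 2.02 and 0.32 to 1.1 in LKO, without. Adrb3 was the brightest of the 6 under vehicle (mean 0.87 in LWT and 1.35 in LKO), ahead of Lep (-0.96 and -1). The sum therefore weighs Adrb3 most under vehicle and does not read the 6 markers alike. Cfd was well above background on 6 of 6 arrays in each LWT group and on 2 and 3 of 6 in vehicle and treated LKO, so that it passed the filter through the LWT mice alone. None of the 7 Kupffer cell and macrophage markers was called in any of the 5 comparisons (0 at an unadjusted p under 0.05 too), and their summed signal overlapped across groups (5.37 to 6.44, 5.58 to 6.58, 5.50 to 6.25 and 5.41 to 6.36 in vehicle LWT, treated LWT, vehicle LKO and treated LKO).

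Endothelial markers moved both ways. In LWT 2 of 6 were higher (Lyve1, 1.18, and Pecam1, 0.49) and Kdr was lower (-0.40); in LKO Lyve1 was higher (2.39) and Kdr (-0.56) and Tek (-0.53) were lower. Their summed signal was 4.06 to 4.18 in vehicle LWT, 4.04 to 4.25 in treated LWT, 3.98 to 4.27 in vehicle LKO and 3.94 to 4.33 in treated LKO. Of 3 neutrophil markers, S100a8 and S100a9 rose in both genotypes (1.48 and 1.44 in LWT, 2.30 and 2.25 in LKO) and Ly6g fell in LWT (-0.38), with sums of 0.83 to 2.30, 0.91 to 3.65, 0.96 to 1.62 and 1.72 to 5.43 in the 4 groups in the same order. Of 3 stellate cell markers Lrat fell in LWT (-0.71), and the sums were 1.95 to 2.25, 1.80 to 2.46, 1.55 to 2.30 and 2 to 2.61. The part of these cells in the Fabp4 and Cd36 results was not tested.

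Fabp5 encodes the epidermal fatty acid binding protein, which is found in many tissues, macrophages included. Its probe lies at base 524 of the transcript (chromosome 3, 10016185 to 10016244, plus strand). It read 5.07, 6.13 and 6.36 in vehicle LWT, 6.01, 6.37 and 7.65 in treated LWT, 4.26, 6.56 and 7.46 in vehicle LKO and 6.22, 6.85 and 8.07 in treated LKO. All groups overlapped. The lowest vehicle LKO mouse, replicate 4, read 4.26 where the next lowest read 5.92. Judged by the gap as a share of the group's range, it is not among the mice flagged further on. The SD in that group, 1.09, stood at percentile 99 of all genes. The change was 0.55 in LWT (-0.29 to 1.40, adjusted p 0.308) and 0.75 in LKO (-0.10 to 1.59, adjusted p 0.153), so that neither passed and increases of up to 1.40 and 1.59 lay inside the intervals. Without vehicle LKO replicate 4 the LKO change was 0.35 (adjusted p 0.435). Whether related gene copies add to the signal of this or another member probe was not tested.

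Fabp1 encodes the liver fatty acid binding protein, an abundant protein of hepatocyte cytosol. Its probe lies at base 380 of the transcript (chromosome 6, 71154906 to 71154965, plus strand). It read 9.20, 9.36 and 9.52 in vehicle LWT, 9.47, 9.53 and 9.67 in treated LWT, 9.12, 9.26 and 9.55 in vehicle LKO and 9.19, 9.40 and 9.45 in treated LKO. The ranges were narrow and close: the treated LWT mice overlapped vehicle LWT and lay above all treated LKO mice.

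Fabp1 rose by 0.19 in LWT (SE 0.07, 0.04 to 0.34, 1.14-fold, adjusted p 0.0467; 0.13 to 0.28 within the slides). In LKO the change was 0.06 (adjusted p 0.525), and the effects differed by -0.13 (adjusted p 0.580). These values depended on the scaling: with quantile-normalized signals Fabp1 showed no rise in LWT (0.00, adjusted p 0.966) and was called lower in LKO (-0.17, adjusted p 0.0166), and with the authors' deposited values the changes were -0.03 and -0.16. The LWT call was lost under 6 of 13 alternatives, these and no filter (adjusted p 0.112), each probe on its own (0.0502), slide as a block (0.0568) and slide and row as terms (0.0505). It was also lost without any 1 of 15 of the 24 mice (vehicle LWT 1, 2, 3 or 5, treated LWT 1, 2, 5 or 6, vehicle LKO 1, 2, 3 or 5, treated LKO 1, 2 or 6; adjusted p 0.0509 to 0.113). LKO minus LWT under CL316243 was -0.21 (-0.36 to -0.06, adjusted p 0.0562), and 5 of 13 alternatives called it lower, quantile normalization among them (-0.23, adjusted p 0.00508), as did leaving out vehicle LKO 6 (adjusted p 0.0313) or treated LKO 3 (0.0395).

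Fabp2 encodes the intestinal fatty acid binding protein, best known from enterocytes. Its probe lies at base 816 of the transcript (chromosome 3, 122602276 to 122602335, plus strand). It read 4.91, 5.18 and 5.26 in vehicle LWT, 5.07, 5.50 and 6.15 in treated LWT, 4.62, 5.02 and 5.35 in vehicle LKO and 4.58, 4.74 and 4.91 in treated LKO. The treated LWT mice reached highest and the treated LKO mice lay lowest, without overlap between these groups.

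Fabp2 rose by 0.41 in LWT (SE 0.15, 0.10 to 0.73, 1.33-fold, adjusted p 0.0367; 0.22 to 0.78 within the slides), with 5 of 6 treated mice above the vehicle mean. The call was lost with quantile normalization (0.35, adjusted p 0.0823), the authors' deposited values (0.0770), no filter (0.0730), the LWT groups alone (0.0557), and without any 1 of 6 mice (vehicle LWT 1, 2 or 4, or treated LWT 4, 5 or 6; 0.29 to 0.42, adjusted p 0.0512 to 0.106). In LKO the change was -0.26 (-0.57 to 0.06, adjusted p 0.185), with all 6 treated mice below the vehicle mean. The difference between the effects was -0.67 (-1.12 to -0.22) and did not pass (adjusted p 0.0751), but did without treated LWT replicate 3 (-0.77, adjusted p 0.0278) or vehicle LKO replicate 2 (-0.75, adjusted p 0.0468).

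Under CL316243 Fabp2 was lower in LKO than in LWT by a log2 difference of -0.81 (SE 0.15, -1.13 to -0.49, 1.75-fold, adjusted p 0.000564; -1.22 to -0.47 within the slides). This call was made under all 13 alternatives and without each of the 24 mice. The intestinal markers Cdx2, Sis and Lct were well above background on 0 of 24 arrays, Alpi on 3 and Vil1 on 10. Vil1 was well above background on 3, 0, 3 and 4 of 6 arrays in vehicle LWT, treated LWT, vehicle LKO and treated LKO; it passed the filter through treated LKO alone, so its differences are not given. The summed intestinal signal was -4.33 to -0.76, -4.95 to -3.63, -3.90 to -1.75 and -4.19 to -3.01 in vehicle LWT, treated LWT, vehicle LKO and treated LKO. Cdx2, Sis and Lct add only background to these sums, and Alpi and Vil1 rose above it on some arrays alone. The sums therefore do not compare the groups.

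The second question was what the loss of hepatocyte PPARα does to these carriers at each treatment. Under vehicle 0 of 9 members passed (limma), beside 1.18% of all genes (0.398% higher and 0.778% lower in LKO), and 1 of 9, Slc27a2, had an unadjusted p under 0.05, beside 8.08% of all genes (4.43% lower in LKO). The median LKO minus LWT of the members was -0.10, beside -0.02 over all genes, and every member's ranges overlapped. Under CL316243 3 of 9 were lower in LKO, Fabp2, Fabp4 and Slc27a2, beside 15.9% of all genes called, 8.17% lower and 7.74% higher. The median was -0.21, beside 0.01 over all genes. Fabp1, Fabp2 and Slc27a2 did not overlap between the genotypes under CL316243, beside 6.57% of all genes. These comparisons share groups with those of the treatment.

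In the interaction, 4 members, Cd36, Fabp2, Fabp4 and Slc27a2, had an unadjusted p under 0.05 and a lower change in LKO than in LWT, beside 18.1% of all genes at that threshold, 8.88% in this direction. Of these Slc27a2 passed over all genes. The median difference of the 9 was -0.13, beside 0.03 over all genes. The intervals of the other 5, Fabp1 (-0.13, -0.34 to 0.09), Fabp5 (0.19, -1.01 to 1.39), Slc27a1 (-0.08, -0.72 to 0.56), Slc27a4 (0.19, -0.11 to 0.49) and Slc27a5 (-0.07, -0.29 to 0.15), lay on both sides of 0. Without vehicle LKO replicate 4 the Fabp5 value was -0.20.

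**Figure D4:**
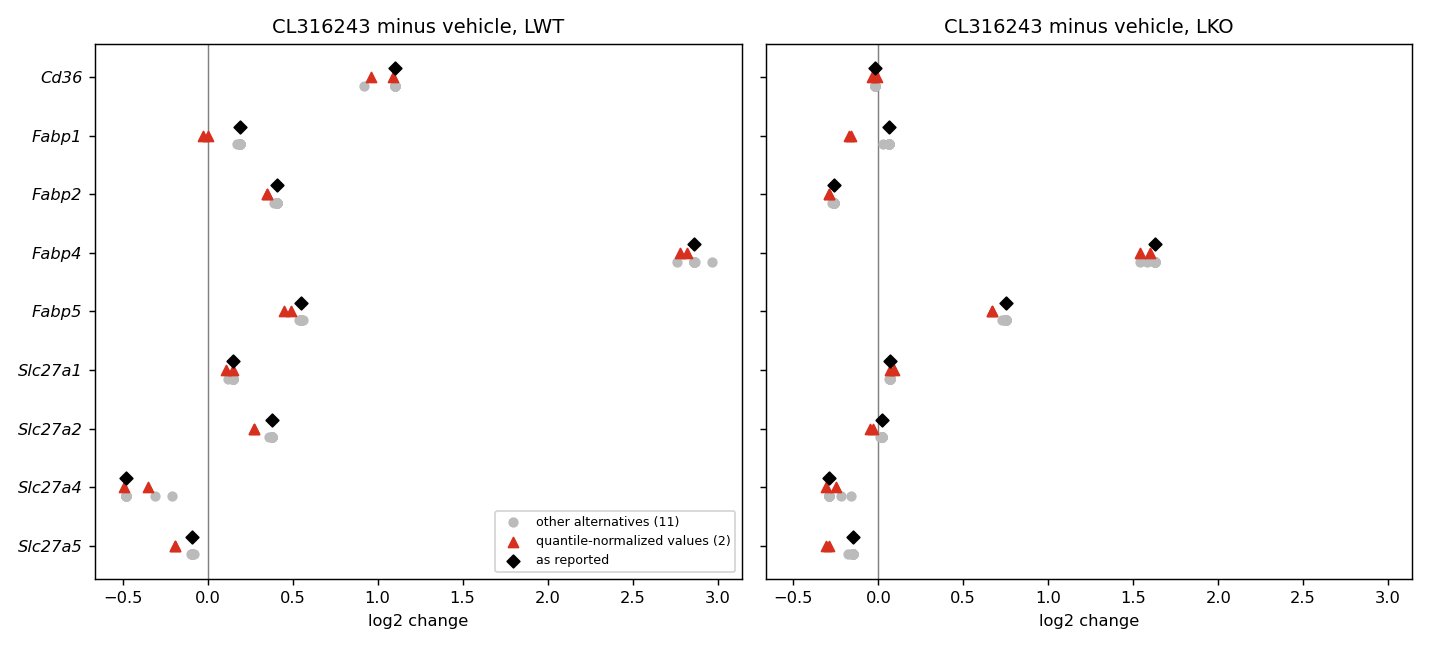
Log2 change with CL316243 in LWT (left) and LKO (right) for the 9 members as reported (diamonds), with quantile-normalized values computed here or deposited by the authors (triangles) and under the other 11 alternatives (grey circles). Cd36 and Fabp4 keep their place in LWT (0.92 to 1.1 and 2.76 to 2.97), while Fabp1 moves to 0.00 and -0.03 in LWT and below 0 in LKO with quantile-normalized values.

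The genes whose 4 group means ran most like those of the 2 members with a span over 1 were found by the smallest root mean square difference of centred log2 means, over 13925 genes. For Fabp4, which read 0.92, 3.78, 0.81 and 2.44 as means in vehicle LWT, treated LWT, vehicle LKO and treated LKO, they included Rnf144a, a ubiquitin ligase (0.108), and Adh7, an alcohol dehydrogenase (0.174). For Cd36 they were Dtx4 (0.067), Usp17lc (0.082) and Sdccag8 (0.085). Such likeness rests on 4 means and says nothing of shared control.

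Other genes of fatty acid transport, binding, activation and lipoprotein lipid delivery were taken from a list of 27, all on the array. Of these 22 were tested, and Slc27a6, Fabp6, Fabp9, Pmp2 and Cav1 did not pass the filter on dim probes. With CL316243, 8 rose and 3 fell in LWT (median 0.10), where 18.9% of all genes rose and 19.4% fell. In LKO 3 rose and 5 fell (median -0.17), where 20.9% of all genes rose and 19.4% fell. In the interaction 4 of 22 were called, all with the lower value in LKO (3.24% of all genes), and 0 the other way (2.17%). LKO was lower than LWT for 3 of 22 under vehicle (0.778% of all genes) and for 8 of 22 under CL316243 (8.17%), and higher for 0 in both (0.398% and 7.74%). Each list gene was read by its brightest kept probe alone, and other probes were not compared. The array holds 6 probes for Lpl, 3 each for Acsl1, Acsl5, Acbd4 and Lrp1, and 2 for Fabp12.

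Acsl1, the main long-chain acyl-CoA synthetase of liver, acts next after uptake. It read 6.41, 7.12 and 7.64 in vehicle LWT, 7.30, 8.29 and 8.43 in treated LWT, 6.66, 6.75 and 7.15 in vehicle LKO and 5.45, 6.01 and 6.54 in treated LKO. It rose by 1.05 in LWT (adjusted p 0.000263), fell by 0.76 in LKO (adjusted p 0.00453), and the effects differed by -1.81 (adjusted p 0.00029). No member was called in opposite directions in the 2 genotypes. Acsl5, another synthetase, rose by 0.73 in LWT (adjusted p 0.00021) and gave -0.15 in LKO (adjusted p 0.396), a difference of -0.88 (adjusted p 0.00736).

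The interaction also held Got2, whose product is mitochondrial aspartate aminotransferase and has been described as a plasma membrane fatty acid binding protein (-0.32, adjusted p 0.0468), and Lipc, hepatic lipase (-0.49, adjusted p 0.0333). Got2 gave 0.13 in LWT (adjusted p 0.111) and fell by 0.18 in LKO (adjusted p 0.0303). Lipc gave 0.06 in LWT (adjusted p 0.680) and fell by 0.43 in LKO (adjusted p 0.001). Both thus passed in LKO and not in LWT, the reverse of Slc27a2. The Lipc mean was 1.14 in vehicle LKO and 0.76 in vehicle LWT (LKO minus LWT 0.37, limma, adjusted p 0.0595). In treated mice it was 0.70 in LKO and 0.82 in LWT (-0.12, adjusted p 0.465). How the calls of Got2 and Lipc depend on the processing was not tested.

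Mfsd2a, a transporter of lysophosphatidylcholine that carries fatty acids, had the widest differences of the list. It read 1.70, 2.88 and 4.01 in vehicle LWT, 4.86, 5.38 and 5.71 in treated LWT, -4.85, -2.83 and -2.19 in vehicle LKO and -1.17, 0.55 and 2.89 in treated LKO. It rose by 2.53 in LWT (adjusted p 0.00204) and by 3.75 in LKO (adjusted p 4.62e-05), and LKO minus LWT was -5.92 under vehicle (adjusted p 1.37e-06) and -4.69 under CL316243 (adjusted p 5.42e-06). No member had a called genotype difference under vehicle.

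Of the other list genes with large changes, Fabp12, a binding protein of the same family as Fabp4, rose by 1.85 in LWT (limma, adjusted p 0.0109) and gave 1.15 in LKO (adjusted p 0.101). Its signal was low, with a mean of -4.15 in vehicle LWT, where 5 of 6 arrays read it well above background. Acbd4, an acyl-CoA binding protein, fell by 0.51 in LWT (adjusted p 0.0229) and by 0.87 in LKO (adjusted p 0.000383). Under vehicle Lpl, lipoprotein lipase, was lower in LKO (-1.06, adjusted p 0.00784), as was Lrp1, a receptor for lipoprotein remnants (-0.38, adjusted p 0.0434). Under CL316243 LKO minus LWT was -2.06 for Acsl1 (adjusted p 8.64e-08) and -0.94 for Acsl5 (adjusted p 3e-05), beside -1.34 for Fabp4, -0.81 for Fabp2 and -0.57 for Slc27a2.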

How the data were processed

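Liver RNA of 24 mice was measured, 1 Cy3 array per mouse, labelled from 200 ng of RNA. Per the file headers, the authors' scanner tables hold background-subtracted intensity values from Agilent Feature Extraction 10.10.1.1 (62976 spots). The deposited series matrix holds log2 values for 31367 probes; median signals from the scanner tables, after log2 and quantile normalization, lay a median of 0.00368 from them. Here, outlier spots were left out, log2 intensities had each array's 75th percentile subtracted, and a probe was kept if 4 or more of the 6 arrays in some group read it well above background (32035 probes). The brightest kept probe stood for its gene. limma 3.58.1 (R 4.3.3, data.table version 1.17.8) fitted 1 mean per group over all 24 arrays, for 5 comparisons. P-values were adjusted by Benjamini-Hochberg over 21331 genes. The number of arrays limits the precision. The 3 slides hold 2 mice of every group each.

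The members, the 27 other genes and the marker lists (hepatocyte, adipocyte, Kupffer cell, endothelial, intestinal, muscle, neutrophil, stellate) were chosen with earlier results of these data known. The rule for names took every member, Ppara, list genes called in the interaction, up to 3 of the largest called elsewhere, the 3 genes most like each member with a span over 1, and markers. One gene named by this rule is not reported here. Of 3 muscle markers, 2 were tested and 0 called (limma; 0 at an unadjusted p under 0.05). Of 5 hepatocyte markers Hnf4a rose in both genotypes and Apoa1 fell in LKO. The alternatives were other background correction, normalization, filters, probe rules, slide, row or replicate number as terms, other fits and leaving out each mouse; the percentile over probes was added after the data were seen. Protein sequences were not used here.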

Additional observations from a re-analysis of the deposited data

Results flagged for a closer look

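Within the 36 groups of 6 mice examined for a mouse far from the rest of its group, 2 had one. For Fabp5, vehicle LWT replicate 6 read 5.07, and the nearest mouse of the group read 5.90, a gap of 0.64 of the group's range. For Slc27a5, vehicle LWT replicate 3 read 8.14 and the nearest mouse 8.34, a gap of 0.75 of the range. By chance about 1 in 20 such groups has one.

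The change of Slc27a2 with CL316243 differed between genotypes by -0.35 (LKO minus LWT, limma, adjusted p 0.0333): it was higher in 6 of 6 treated LWT mice than in any vehicle LWT mouse, and the treated LKO mice lay on both sides of the vehicle LKO mean.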

How the results depend on the processing

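Over 13 alternatives with all mice and 24 that leave out 1 mouse each, 1656 values of the 9 members were recomputed; 1561 kept direction and call, 49 lost the call, 16 gained it and 30 changed sign. Of the 30, 4 were called in one of the settings compared, all Fabp1: 0.00 and -0.03 in LWT and -0.17 and -0.16 in LKO, with quantile normalization and with the deposited values. The other 26 were called in neither. Among them, Slc27a2 in LKO was -0.05 with quantile normalization and -0.03 with the deposited values, Slc27a4 was 0.01 for genotype under CL316243 with normexp and -0.01 in the interaction with the mean of its probes. With 1 mouse left out, the results that changed sign ranged from -0.19 to 0.16 for Cd36 in LKO, -0.20 to 0.44 for Fabp5 in the interaction, 0.00 to 0.23 (LWT), -0.11 to 0.20 (LKO) and -0.26 to 0.07 (interaction) for Slc27a1, 0.00 to 0.06 for Slc27a2 in LKO, and, for genotype under CL316243, -0.03 to 0.04 for Slc27a4 and -0.01 to 0.06 for Slc27a5. The count of members called in LKO, 2 as reported, was 4 with quantile normalization, 4 with the deposited values, and 1 with no filter, with the mean of a gene's probes or with only the LKO groups fitted. The interaction's count of 1 was 0 with the deposited values and 0 with no filter. With the replicate block it was 2, since Fabp2 passed (-0.67, limma, adjusted p 0.0496), and the block changed no other call. Deviations from the group means had a mean correlation of 0.058 between same-numbered mice of different groups (-0.18 to 0.42, 36 pairs). Between mice with other numbers it was -0.011 (-0.47 to 0.37, 180 pairs). These values cannot settle whether the numbers pair mice. Leaving out 1 mouse gave 4 to 6 members called in LWT, 1 to 2 in LKO, 0 to 2 in the interaction, 0 for genotype under vehicle and 3 to 4 under CL316243. Where no value above shows it, the cause was not tested. Signal near background limits the dimmer Slc27a4 probe.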
